A study of Homo sapiens with 3 samples.

Results

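Caveolin-1, alpha-B crystallin, the forkhead factor FOXC1 and the secreted Wnt inhibitor SFRP1 are 4 genes that mark basal-like breast cells without being keratins or cadherins. They were taken by gene name (CAV1, CRYAB, FOXC1 and SFRP1) from a panel of 110 endogenous genes, and all 4 were on it. Their RNA was counted with the NanoString nCounter, which hybridises a colour-coded probe to each target RNA and counts the barcodes without amplification. The samples were 3 subpopulations of MCF10A, a non-tumorigenic, spontaneously immortalised line of human breast epithelium. The labels call them luminal, basal and stem, and each has a single library with no treatment stated. The title of the study concerns transitions between cell states that are governed by Slug, a transcription factor of basal and mesenchymal cells, and the comparisons ask how these markers differ between the states. How the subpopulations were separated is not given in the sources used here, and the labels name an extraction kit for fixed tissue although the material is a cell line. Each library is bulk RNA, so that fewer cells with a transcript and less transcript per cell cannot be told apart.

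Basal-like genes are those shared by the outer, myoepithelial layer of the mammary gland and by the breast tumours that resemble it. CAV1 encodes the main coat protein of caveolae, the small invaginations of the plasma membrane. SFRP1 encodes a secreted protein that binds Wnt ligands outside the cell and limits their signalling. FOXC1 encodes a forkhead transcription factor used as a marker of basal-like tumours, and CRYAB encodes a small heat shock protein that keeps unfolded proteins from aggregating.

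The 4 probes were designed on RefSeq transcripts. In the current RefSeq annotation of GRCh38.p14, CAV1 (NM_001753.3) lies on chromosome 7 at 116525009 to 116561185, and FOXC1 (NM_001453.1) on chromosome 6 at 1609915 to 1613897. CRYAB (NM_001885.1) lies on chromosome 11 at 111908564 to 111923740. RefSeq lists 4 transcripts of CAV1 and 6 of CRYAB, and which of them each probe captures is not given in the sources used here. Because Slug binds the E-box, CANNTG, the 250 bases before the annotated gene start (GRCh38.p14, plus strand, RefSeq) are shown. Start windows were at hand for only 2 of the 4 members, so SFRP1 and CRYAB were not examined. The 2 are CAV1 (chr7:116524759-116525008), counted well in every library, and FOXC1 (chr6:1609665-1609914), listed at a count of 1 in the luminal and basal libraries. Capitals mark GGGCGG, the GC box, on either strand.

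CAV1: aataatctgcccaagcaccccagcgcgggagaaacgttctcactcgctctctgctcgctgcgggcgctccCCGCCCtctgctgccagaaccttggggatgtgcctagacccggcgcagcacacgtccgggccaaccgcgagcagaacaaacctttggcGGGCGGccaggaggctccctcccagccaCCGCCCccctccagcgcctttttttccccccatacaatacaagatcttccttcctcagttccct

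FOXC1: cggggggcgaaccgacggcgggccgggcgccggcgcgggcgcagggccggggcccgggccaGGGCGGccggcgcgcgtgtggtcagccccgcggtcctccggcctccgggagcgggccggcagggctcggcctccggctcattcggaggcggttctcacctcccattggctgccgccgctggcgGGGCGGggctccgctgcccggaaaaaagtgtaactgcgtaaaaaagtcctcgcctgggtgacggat

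Neither window holds CANNTG, which occurs in 62.2% of windows of this length over 27305 genes, or its form CAGGTG, searched on both strands and contained in CANNTG, which occurs in 17.5%. The GC box stands 3 times in the CAV1 window and 2 times in that of FOXC1, and 42.3% of all windows hold it. These matches describe the letters only and say nothing of binding. For CAV1 the RefSeq table has 3 start windows, of which the most upstream is shown.

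The libraries differed widely in depth. Over all endogenous genes luminal had 9136 counts, basal 8891 and stem 792367. The 6 spiked positive controls, which do not come from the cells, summed to 2795, 776 and 69670 counts in these libraries. No value below 1 was listed in any library, and a listed 1 may therefore stand for no count at all. Background, the mean plus 2 SD of the 8 negative control probes, was 1.83 counts in luminal, 1 in basal and 18.9 in stem. Levels are given below as normalised counts, the raw count per 100 of the geometric mean of 5 housekeeping genes in the same library. Intervals are 95% intervals of counting error. The basal genes KRT5, KRT14, KRT17 and CDH3 were above background in all 3 libraries, with summed normalised counts of 1470 in luminal, 1572 in basal and 1245 in stem. The 6 luminal markers on the panel had summed normalised counts of 920 in luminal, 916 in basal and 658 in stem. Most of this was KRT8, the highest gene other than housekeeping in each library. CD24 had 21 counts in luminal, 4 in basal and 738 in stem. Of the 6, 3 were listed at 1 in luminal (KRT19, GATA3 and ESR1) and 4 in basal (these and EPCAM). All 6 were above background in stem, the deepest library. The part of depth in these detections was not tested.

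CAV1 was counted well in each library. It had 78 counts in luminal, 65 in basal and 9216 in stem, which is 0.854% (exact binomial interval 0.675% to 1.06%), 0.731% (0.565% to 0.931%) and 1.16% (1.14% to 1.19%) of the endogenous counts. Per 100 of the housekeeping mean, its level was 56.5 (44.7 to 70.5) in luminal and 54.9 (42.4 to 70.0) in basal, and reached 71.7 (70.3 to 73.2) in stem. The luminal and basal levels differed by less than their counting error, and the stem level was the highest of the 3 at the upper edge of both other intervals. For basal over luminal the log2 ratio was -0.04 (-0.54 to 0.45), an interval that lies within 2-fold in either direction. Scaled by the 6 spiked positive controls in place of housekeeping genes it was 1.15, since the luminal lane had fewer endogenous counts per control count than the others, as given with the scales at the end. Stem exceeded luminal by a log2 ratio of 0.34 (0.02 to 0.68), 1.27-fold, and basal by 0.39 (0.03 to 0.76), 1.31-fold. Both of these intervals excluded equality by a small margin, and they take the housekeeping scale as exact. With the counting error of that scale included they ran from -0.03 to 0.73 and from -0.03 to 0.82, and so included it.

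SFRP1 (NM_003012.3), on chromosome 8 at 41261962 to 41309473 of GRCh38.p14, had 27 counts in luminal, 27 in basal and 3443 in stem. Its normalised level was 19.6 (12.9 to 28.5) in luminal and 22.8 (15.0 to 33.2) in basal, and 26.8 (25.9 to 27.7) in stem, so that the order ran luminal, basal, stem, with no neighbours apart beyond counting error. The equal raw counts in luminal and basal differ after scaling because the housekeeping mean was 138 counts in luminal and 118 in basal. The log2 ratio of basal over luminal was 0.22 (-0.60 to 1.05). That of stem over luminal was 0.45 (-0.09 to 1.06), and that of stem over basal 0.23 (-0.31 to 0.84). The first 2 of these intervals include both equality and a 2-fold higher level than in luminal. On the scale of the 6 positive controls the ratio of basal over luminal was 1.41.

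FOXC1 was listed at 1 in luminal and in basal and had 111 counts (91.3 to 134) in stem, 5.88 times the background there and above the highest negative control, which had 14. In stem its level was 0.864 (0.711 to 1.04) per 100 of the housekeeping mean. At that same level the luminal library would hold 1.19 counts and the basal library 1.02 on the housekeeping scale. On the scale of the 6 positive controls they would hold 3.76 and 1.41. A lower level in luminal or basal than in stem was therefore not detectable at these depths. On the housekeeping scale the listed counts allow a level up to 4.77 times that of stem in luminal and up to 5.56 times in basal. With the listed 1 taken as a count, the log2 ratio was 0.25 for stem over luminal, with a lower bound of -2.25, and 0.03 for stem over basal, with a lower bound of -2.48. If the true count was 0 these ratios are too low, and neither interval has an upper bound. With the 6 positive controls as the scale, stem over luminal was 1.91, with a lower bound of -0.60.

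CRYAB was listed at 1 in luminal and in basal and had 81 counts (64.3 to 101) in stem, 4.29 times the background. Its level in stem was 0.631 (0.501 to 0.784) per 100 of the housekeeping mean, at which 0.870 counts would be counted in luminal and 0.746 in basal. On the housekeeping scale the listed counts allow levels up to 6.59 times that of stem in luminal and 7.68 times in basal. The log2 ratio, with the listed 1 taken as a count, was -0.20 for stem over luminal, with a lower bound of -2.72, and -0.42 for stem over basal, with a lower bound of -2.94. With the 6 positive controls as the scale, stem over luminal was 1.46, with a lower bound of -1.06. No ratio is given for FOXC1 or CRYAB between basal and luminal, since both libraries were at the lowest listed value, as were 29 of 105 genes in luminal and 31 in basal.

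**Figure D1:**
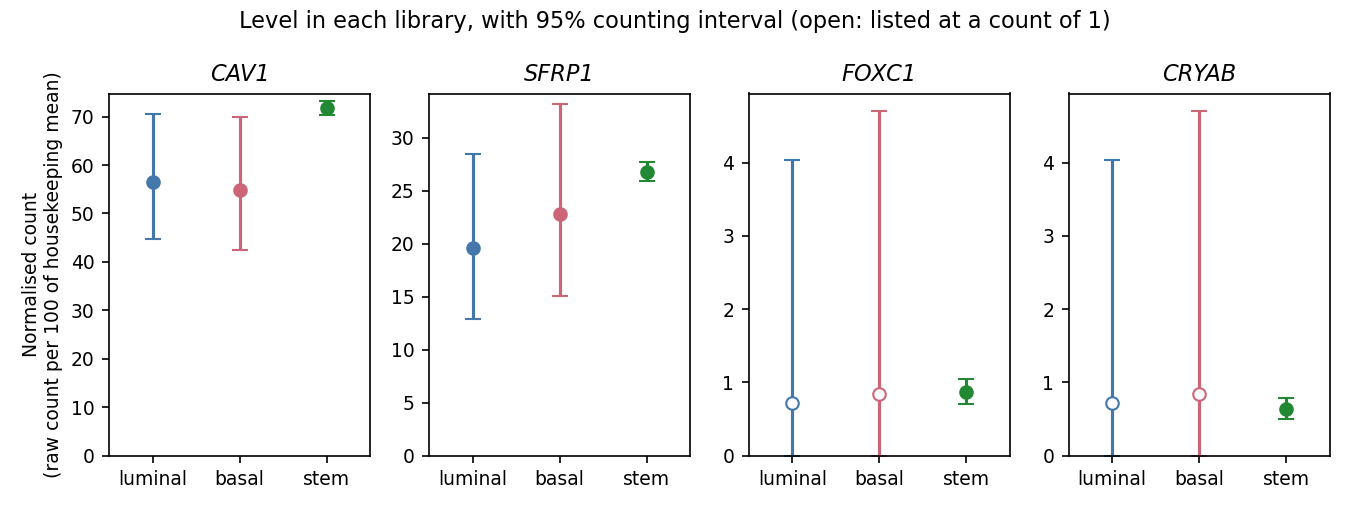
Normalised count (raw count per 100 of the geometric mean of 5 housekeeping genes) of each gene in the luminal, basal and stem libraries, 1 library each; points are levels, bars 95% counting intervals, and open points stand for a listed count of 1, whose interval reaches 0. CAV1 stood at 71.7 in stem against 56.5 and 54.9, the intervals of SFRP1 all overlapped, and for FOXC1 and CRYAB the luminal and basal intervals reached 4.04 and 4.71, far past the stem level.

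On the housekeeping scale, in basal over luminal, the contrast that the name of these markers addresses, 0 of the 2 members above background had an interval that excluded 1, against 16.5% of the 79 genes above background. Of the same 2, 0 passed the rule of size, which asks for a 2-fold or larger ratio besides such an interval, against 2.53% of these genes. The median log2 ratio of CAV1 and SFRP1 was 0.09, beside 0.14 over all 79 genes. CAV1 and SFRP1 were thus not separable between the libraries labelled basal and luminal on this scale. Both passed the rule of size, as higher in basal, on both positive control scales. Those scales add 1.19 (all 6 controls) or 1.65 (controls A to D) to the log2 ratio of every gene in this comparison. The share of the panel that passes on them is not given here, so these passes are not read as a result about the members. FOXC1 and CRYAB could not be compared between basal and luminal.

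For stem over luminal, 1 of 4 members, CAV1, was higher with an interval excluding 1, against 20.2% of 94 genes that were higher by that measure, and 0 passed the rule of size, against 4.26%. For stem over basal, again 1 of 4, CAV1, was higher with an interval excluding 1, against 12.8% of 94 genes, and 0 passed the rule of size, against 3.19%. The median log2 ratio of the 4 members was 0.30 for stem over luminal beside 0.16 over all genes above background, and 0.13 for stem over basal beside 0.03. Over CAV1 and SFRP1 alone, which were above background in both libraries, it was 0.40 and 0.31, beside 0.24 and 0.15 over the genes above background in both. These 2 comparisons share the stem library. FOXC1 and CRYAB entered the counts and medians of 4 only through stem, with the listed 1 taken as a count. A call of either as lower in stem was within reach and was not made. A call as higher in stem was not within reach. With their stem counts, even the lowest listed value in the other library leaves 1 inside the interval. Only CAV1 and SFRP1 could thus have been called higher in stem. The counts of 4 are therefore not read as near or far from the share of the whole panel. Without replicates the spread between samples of a subpopulation is unknown.

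The proportion of CAV1 to SFRP1 did not differ beyond counting error between any of the libraries. Luminal had 2.89 CAV1 counts per SFRP1 count (1.84 to 4.66). Basal had 2.41 (1.52 to 3.92), and stem 2.68 (2.57 to 2.78). The probes may capture their targets unequally, so these proportions compare libraries and not the abundance of the transcripts. The change of CAV1 relative to SFRP1, which needs no scale between libraries, had a log2 value of -0.26 (-1.24 to 0.71) in basal over luminal, -0.11 (-0.80 to 0.54) in stem over luminal and 0.15 (-0.55 to 0.82) in stem over basal. The widest of these intervals, that of basal over luminal, includes an unequal change of 2-fold.

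Beside these members, 9 of 23 other basal-like or myoepithelial genes were on the panel, and 7 of them were above background in every library. For basal over luminal, 4 of the 7 were higher (KRT5, KRT14, PHGDH and VIM), 1 was lower (KRT17) and 2 had intervals that included 1, with a median log2 ratio of 0.37 beside 0.14 over all genes, of which 10 were higher and 3 lower. PHGDH, an enzyme of serine synthesis, had 126 counts in basal against 96 in luminal, which gives a log2 ratio of 0.61 (0.22 to 1.01). For stem over luminal, 2 of 8 above background were higher, CDH3 and PHGDH, and 1, KRT5, was lower. CDH3, which encodes the adhesion molecule P-cadherin, had a log2 ratio of 0.62 (0.21 to 1.05) there and PHGDH one of 0.59 (0.30 to 0.89). The list median there was 0.20 beside 0.16 over the 94 genes above background, of which 19 (20.2%) were higher and 4 (4.26%) lower. For stem over basal, CDH3 and KRT17 were higher, while KRT5, KRT14 and VIM were lower. Over all genes 12 were higher and 11 lower. The direction of KRT5 in basal over luminal turned with the total count, with the median of ratios and without SF3A1, and that of KRT17 there and of KRT5 in stem over luminal turned on both positive control scales. KRT5 and KRT14, which encode the keratin pair of basal epithelial cells, thus stood lower in stem than in basal where CAV1 stood higher. ACTR3B, a gene of the actin-branching machinery, had 1, 1 and 128 counts in luminal, basal and stem, near those of FOXC1. The stem level of FOXC1 would itself give 1.19 counts in luminal and 1.02 in basal on the housekeeping scale. The shared listed 1 therefore shows no likeness beyond the stem counts. MIA, a secreted protein used as a basal-like marker, was not above background, with 1, 1 and 13. Of the members' own families, the panel held 0 of 7 further caveola genes, 0 of 5 small heat shock genes and 0 of 14 Wnt pathway genes from the lists used. Of 8 forkhead genes it held FOXA1, a factor of luminal cells, with 5 counts in luminal, 3 in basal and 298 in stem, and the log2 ratio for stem over luminal was -0.64 (-1.88 to 0.99).

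**Figure D2:**
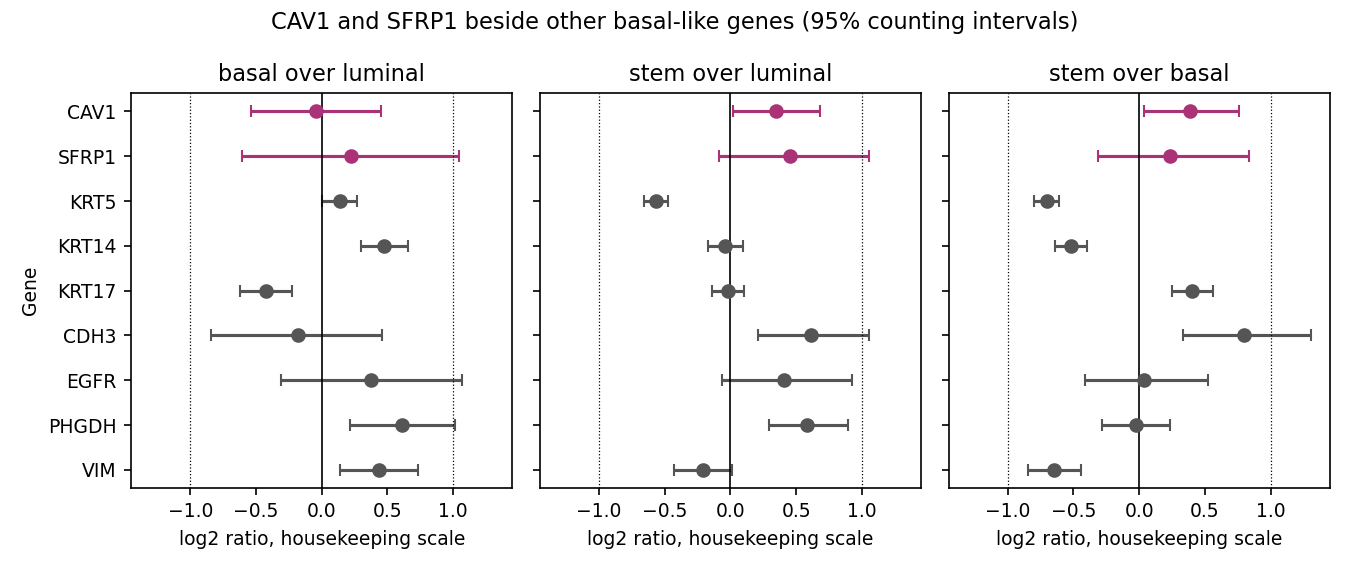
The log2 ratio of CAV1 and SFRP1 (coloured) and of 7 other basal-like genes (grey) for each pair of libraries on the housekeeping scale, with 95% counting intervals; the solid line marks equality and dotted lines 2-fold. CAV1 lay right of 0 in both comparisons with stem, at 0.34 and 0.39, while KRT5 lay left of it, at -0.57 and -0.70, and all 9 points lay within 2-fold.

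Set against single genes of the same 2 libraries, the members' change is free of any scale. CAV1 relative to KRT5 was 1.88-fold higher in stem than in luminal, a log2 value of 0.91 (0.58 to 1.26), and 2.13-fold higher when stem is set against basal, with 1.09 (0.72 to 1.48). SFRP1 relative to KRT5 was higher by 1.02 (0.47 to 1.63) and 0.94 (0.38 to 1.55) in these comparisons. Most of the panel did likewise: 75.4% of 57 genes with at least 10 counts in both libraries were higher relative to KRT5 in stem than in luminal, and 75.5% of 53 in stem than in basal. Relative to VIM, which encodes the intermediate filament vimentin, CAV1 was higher in stem by 0.56 (0.16 to 0.96) over luminal, as were 49.1% of genes, and by 1.03 (0.62 to 1.46) over basal, as were 67.9%. SFRP1 relative to VIM gave 0.67 (0.07 to 1.31) and 0.88 (0.29 to 1.52). These values are thus not particular to the members.

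Relative to KRT14, CAV1 was higher in stem by 0.38 (0.03 to 0.75) over luminal, as were 35.1% of genes, and by 0.90 (0.53 to 1.30) over basal, as were 62.3%. SFRP1 relative to KRT14 came to 0.49 (-0.07 to 1.11) and 0.75 (0.19 to 1.37). Relative to KRT17, CAV1 was higher in stem over luminal by 0.36 (0.02 to 0.73), as were 33.3% of genes, and close to 0 over basal, at -0.02 (-0.40 to 0.39). Against CDH3 and EGFR, the receptor of epidermal growth factor, neither member had an interval that excluded equality in any comparison. For CAV1 relative to CDH3 the values were 0.14 (-0.68 to 0.97) in basal over luminal, -0.27 (-0.82 to 0.26) in stem over luminal and -0.41 (-1.04 to 0.19) in stem over basal. Of all genes, 28.1% were lower relative to CDH3 in stem over luminal and 43.4% in stem over basal. Of 6 such reference genes, CAV1 was higher in stem against 4 over luminal and 3 over basal, SFRP1 against 2 and 3, and both against 0 in basal over luminal.

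**Figure D3:**
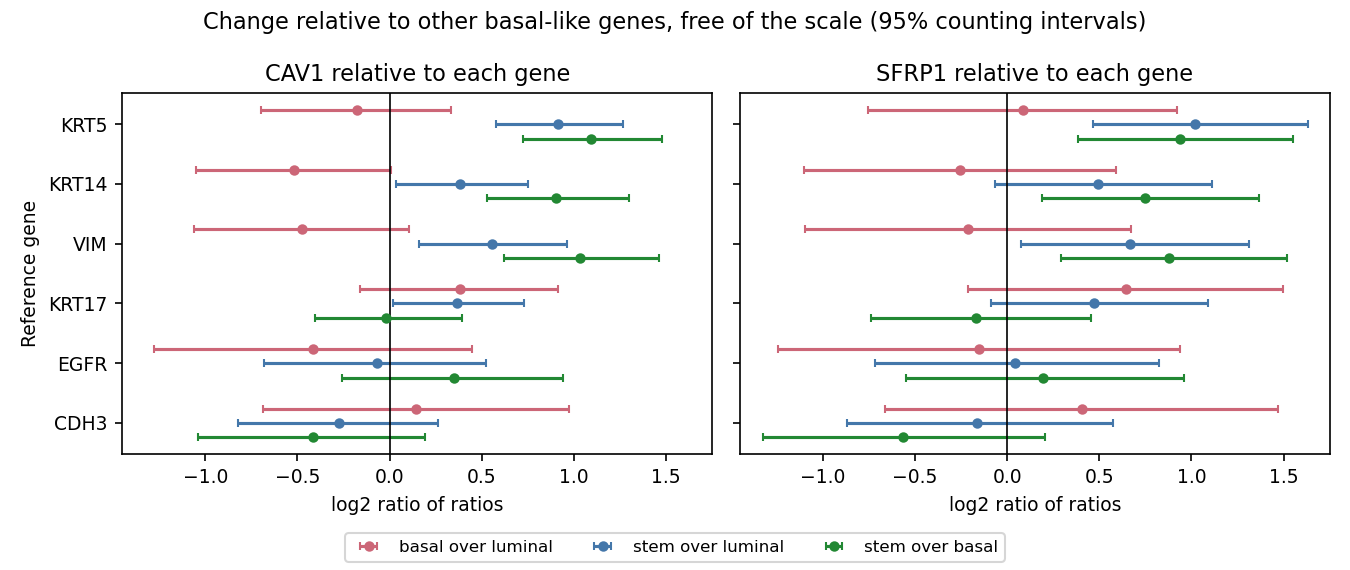
The log2 change of CAV1 and of SFRP1 relative to each of 6 other basal-like genes (a ratio of ratios) for the 3 pairs of libraries, with 95% counting intervals; the vertical line marks equal change. Against KRT5 both members lay right of the line in stem, at 0.91 and 1.09 for CAV1 and at 1.02 and 0.94 for SFRP1, and against CDH3 and EGFR all intervals crossed it.

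The genes with the most similar pattern were taken as those at the smallest Euclidean distance in log2 counts centred over the 3 libraries, among 53 genes with at least 10 counts in each. For CAV1 these were ORC6L (now ORC6, a subunit of the origin recognition complex) at 0.03, SLC16A3 (a lactate transporter) at 0.09 and PLOD1 (a collagen lysyl hydroxylase) at 0.13, against a median distance of 0.44. ORC6L had 21, 17 and 2432 counts in luminal, basal and stem, and SLC16A3 had 45, 35 and 5415. For SFRP1 they included PNP (purine nucleoside phosphorylase) at 0.03 and CDC20 (an activator of the anaphase-promoting complex) at 0.08, against a median of 0.42. PNP had 28, 28 and 3488 counts in luminal, basal and stem, and CDC20 had 88, 86 and 10415. CAV1 and SFRP1 were 0.19 apart, which placed SFRP1 as number 7 in the order from CAV1 and CAV1 as number 9 in that from SFRP1. These distances rest on 3 values a gene that share depth and lane, and no error was attached to them.

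The choice of scale bears on every ratio above that is not relative to a gene. Against the single housekeeping genes, CAV1 in stem over basal ranged from -0.27 relative to the splicing factor gene SF3A1, which had 10 counts in basal, to 1.23 relative to the ribosomal protein gene RPLP0, and it was above 0 against 4 of 5. In stem over luminal it ranged from -0.15 relative to MRPL19 to 0.80 relative to RPLP0, and was above 0 against 4 of 5. SFRP1 was above 0 against 3 of 5 in stem over basal and 4 of 5 in stem over luminal. The 6 positive controls, spiked RNA added apart from the sample, gave another scale. Per positive control count, luminal had 3.27 endogenous counts, basal 11.5 and stem 11.4. With all 6 of them as the scale, CAV1 stood above luminal by 1.15 in basal and by 2.002 in stem, and SFRP1 by 1.41 and 2.11, so that both passed the rule of size in these comparisons. This scale raised the log2 ratio to luminal of every gene alike, by 1.19 for basal and by 1.66 for stem. The amount of RNA put into each lane is not known here, and its part in these shifts was not tested. CAV1 was higher in stem than in either other library on the 10 scales plotted, though not against SF3A1 or MRPL19 alone, and with the median of ratios its intervals included equality, as they did in both comparisons without RPLP0, over luminal without SF3A1 and over basal without PSMC4.

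**Figure D4:**
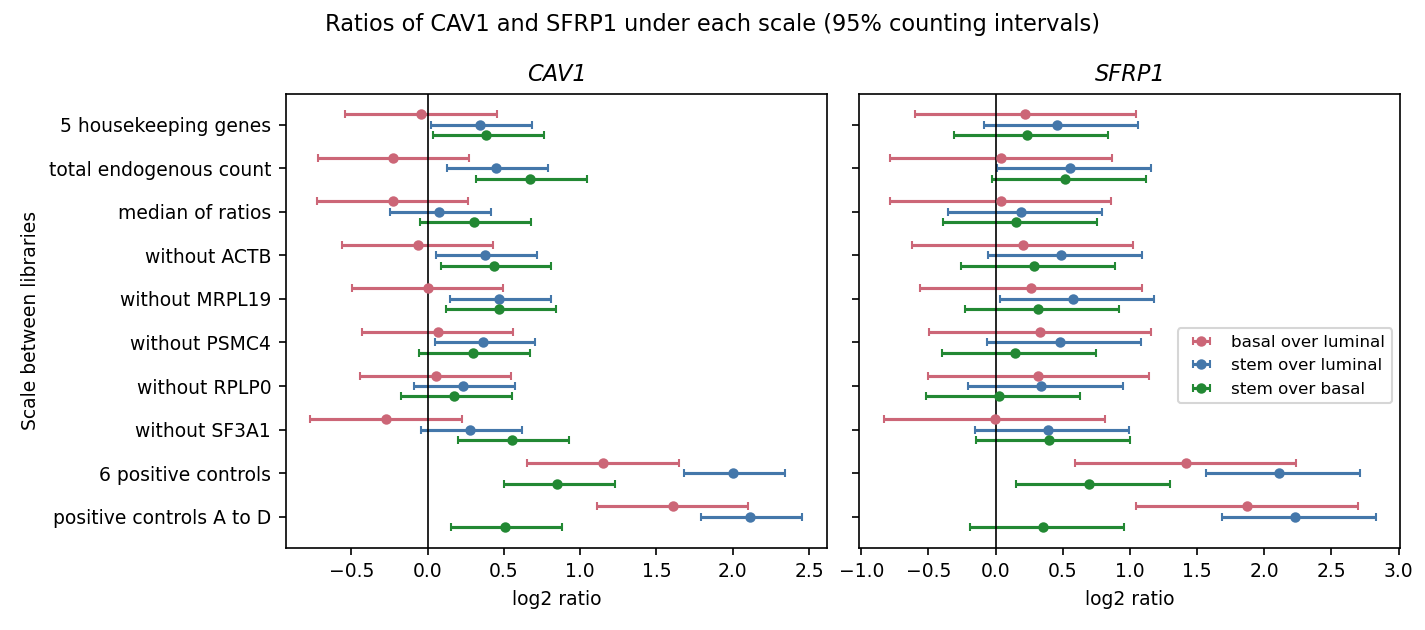
The log2 ratio of CAV1 and of SFRP1 for each pair of libraries under 10 scales between libraries (5 housekeeping genes, total endogenous count, median of ratios, each housekeeping gene left out, 6 positive controls, and positive controls A to D), with 95% counting intervals. The ratios to luminal moved to between 1.15 and 2.23 on the positive controls, while stem over basal for CAV1 lay between 0.18 and 0.85 on all of them.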

How the data were processed

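Raw barcode counts per probe were deposited by the authors, with no normalization per the file headers, for 110 endogenous genes, 6 positive and 8 negative controls. The authors also deposited log2 values for 105 genes. Set beside the counts, each such value was the log2 count minus the mean log2 count of ACTB, MRPL19, PSMC4, RPLP0 and SF3A1 in that library (largest difference 3.53e-09). They were not used further. Per the labels' protocols, total RNA at 100 ng per microlitre was processed as the manufacturer directs. Steps before the counts are not given in the sources used here.

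Counts were divided by the housekeeping geometric mean. Ratios carry exact conditional (Clopper-Pearson) 95% intervals, levels exact Poisson intervals, and ratios of ratios exact conditional odds ratio intervals. All cover counting error only. With 1 library per subpopulation no test between them was possible, and no p-value is given. Genes above background in at least 1 library of a pair entered its counts. The named genes were the 4 members, the 3 genes nearest to each member with at least 10 counts in every library, and listed basal-like or family genes on the panel. Of these, 1 gene is not reported here. CDH3, EGFR, VIM and the housekeeping genes were added as references for relative change after the data were seen. The members and lists were chosen with earlier results of these data known. The interval procedure was tested on simulated data. Other scales, thresholds and filters were tried. Python 3.11.15, numpy 2.4.6, scipy 1.17.1, pandas 2.3.3 and matplotlib 3.10.9 were used.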

Additional observations from a re-analysis of the deposited data

How the results depend on the processing

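Of 96 recomputed log2 ratios of the members, 87 stayed within the counting interval of the reported ratio and 9 lay outside it, all 9 on positive control scales. The 87 include every ratio of FOXC1 and CRYAB, whose intervals have no upper bound, so that no upward shift could leave them. With the 6 positive controls, FOXC1 in stem over luminal moved from 0.25 to 1.91 and still lay within. The share within thus bears on CAV1 and SFRP1 only. With the 6 positive controls, basal over luminal came to 1.15 for CAV1 and 1.41 for SFRP1, stem over luminal to 2.002 and 2.11, and stem over basal to 0.85 for CAV1. With controls A to D, basal over luminal came to 1.61 and 1.87 and stem over luminal to 2.12 and 2.23. On either positive control scale 2 members, CAV1 and SFRP1, then passed the rule of size and had intervals excluding 1 for basal over luminal and for stem over luminal, in place of 0 or 1. These scales raised the ratio to luminal of every gene alike, by 1.19 or 1.65 for basal and by 1.66 or 1.77 for stem. The share of the panel that passes on them is not given here. For stem over basal, the 6 controls gave 2 members with intervals excluding 1.

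The call of CAV1 as higher in stem was lost (0 members with an interval excluding 1) in both comparisons with stem under the median of ratios, without RPLP0, with intervals that leave 0.1% outside, and with the counting error of the scale included, a setting added after seeing the data. It was also lost without SF3A1 for stem over luminal, and without PSMC4 for stem over basal. With the total count scale and without MRPL19, SFRP1 joined CAV1 for stem over luminal, giving 2. A limit of 1.5-fold left 0 members past the rule in all 3 comparisons. A 3-fold limit and a minimum of 10 counts in both libraries also gave 0. Both are stricter than the main rule, which had 0 already, so they could give nothing else. The highest negative control as background gave 0 too, and it moved no member above or below background. With a minimum of 20 counts in every library, 1 of the 3 genes nearest to CAV1 was kept, since the other 2 have fewer counts in basal. After subtraction of the negative controls FOXC1 and CRYAB have no value in luminal or basal. No paired analysis was possible because each subpopulation has 1 library and the labels number no replicates. Depth limits FOXC1 and CRYAB most, with at most 1 count outside the stem library.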
